A study of Mus musculus with 15 samples.

Results

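The genes described here make cholesterol and fatty acids. They comprise the enzymes that build sterols and long-chain fatty acids from acetyl-CoA, the proteins that regulate these enzymes, and a pair of sterol carriers. The list names 34 genes, and each was represented by its brightest probe set, judged by the mean of the 15 arrays. Of the 34, 33 were measured, among 18193 genes in all. Acat2, the cytosolic thiolase that joins acetyl-CoA units, had no probe set annotated to it alone and was not analysed here. Of the measured genes, 17 belong to the sterol branch, with 6 between acetyl-CoA and farnesyl diphosphate and 11 between squalene and cholesterol. The fatty acid branch holds 9, the regulators 5 and the sterol carriers 2.

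Both branches start from cytosolic acetyl-CoA. The sterol branch runs through mevalonate and farnesyl diphosphate to squalene, which is closed into lanosterol and trimmed to cholesterol; the fatty acid branch runs through malonyl-CoA to palmitate, which is then elongated and desaturated. Genes of both branches are activated by the sterol regulatory element-binding proteins encoded by Srebf1 and Srebf2. Scap carries these precursors from the endoplasmic reticulum to the Golgi, where proteases release the active factor, and the Insig proteins hold Scap back when sterol is plentiful. In the lactating mammary gland the fatty acid branch supplies milk fat.

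RNA was measured on Affymetrix mouse arrays in 5 related cell lines, with 3 arrays each. NMuMG is a wild-type, non-tumorigenic epithelial line from normal mouse mammary gland, and E1KD is NMuMG with silenced hnRNP E1, an RNA-binding protein whose gene is Pcbp1. M1P, L1P and L2P derive from E1KD, so they carry the same silencing, and they were recovered from immunodeficient NOD/SCID mice injected in the mammary fat pad. M1P came from a mammary tumour after 1 passage, L1P from lung metastasis after 1 passage and L2P from lung metastasis after 2. The culture medium was shared by all 5 lines and held calf serum and fetal bovine serum at 5% each, and NMuMG and E1KD had no selection in mice. Each is 1 line, no line with a control vector was analysed here, and nothing in the labels tells separate cultures from repeat arrays. The p-values measure the spread between arrays, which may be technical.

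Values are log2 signals. An error after a level is the SD of a line's 3 arrays, and an error after a difference is its standard error (SE) from limma's linear model over all 15 arrays. A gene is said to rise or fall where limma's adjusted p, over all 18193 genes, was under 0.05. Pcbp1 lay at 12.57 to 12.76 on the NMuMG arrays and at 7.95 to 10.09 on the 12 arrays of the silenced lines. Over all genes, r between arrays within a line was 0.983 to 0.998, except in M1P, where it was 0.92 to 0.976. The 0.983 was in L2P. Limma's array weights, used only in an alternative fit, are smaller for arrays that scatter more. They were lowest on M1P array 1 (0.122), M1P array 3 (0.299) and L2P array 1 (0.301). The epithelial keratins Krt8 and Krt18 and E-cadherin (Cdh1) were high in all 5 lines, with line means of 10.47 to 14.17, while Epcam and the claudins Cldn3, Cldn4 and Cldn7 had line means of 3.16 to 5.57. The tight junction gene Ocln fell from 8.5 in NMuMG to 6.82 in E1KD, and its means were 6.97, 6.26 and 6.01 in M1P, L1P and L2P. Markers of adipocytes (6 measured), fibroblasts (8) and alveolar or airway cells (6) reached at most 5.83, 6.46 and 6.11 on any array, the highest each time in M1P. The difference between 3' and 5' probe sets of Gapdh, a measure of RNA integrity, was 0.19 to 0.45 over all arrays. For Actb the same difference was larger, at 0.64 to 0.98.

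Most sterol genes differed among the 5 lines, while the share of fatty acid genes that did was nearer to that of all genes. Limma's F test passed 21 of the 33 genes, against 31.8% of all genes. The 21 were 14 of 17 in the sterol branch, 4 of 9 in the fatty acid branch, 2 of 5 regulators and 1 of 2 carriers. Hmgcs1, Idi1 and Dhcr7 were the sterol genes that did not pass. In the fatty acid branch Acaca, Scd1, Fads1 and Fads2 passed, and Acly, Fasn, Scd2, Elovl6 and Acss2 did not. In no comparison of 2 lines did Hmgcs1, Srebf1, Srebf2, Insig2, Abca1, Fasn, Scd1 or Scd2 pass. Abca1, the transporter that exports cholesterol, stayed between 2.44 and 3.12 on every array.

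**Figure D1:**
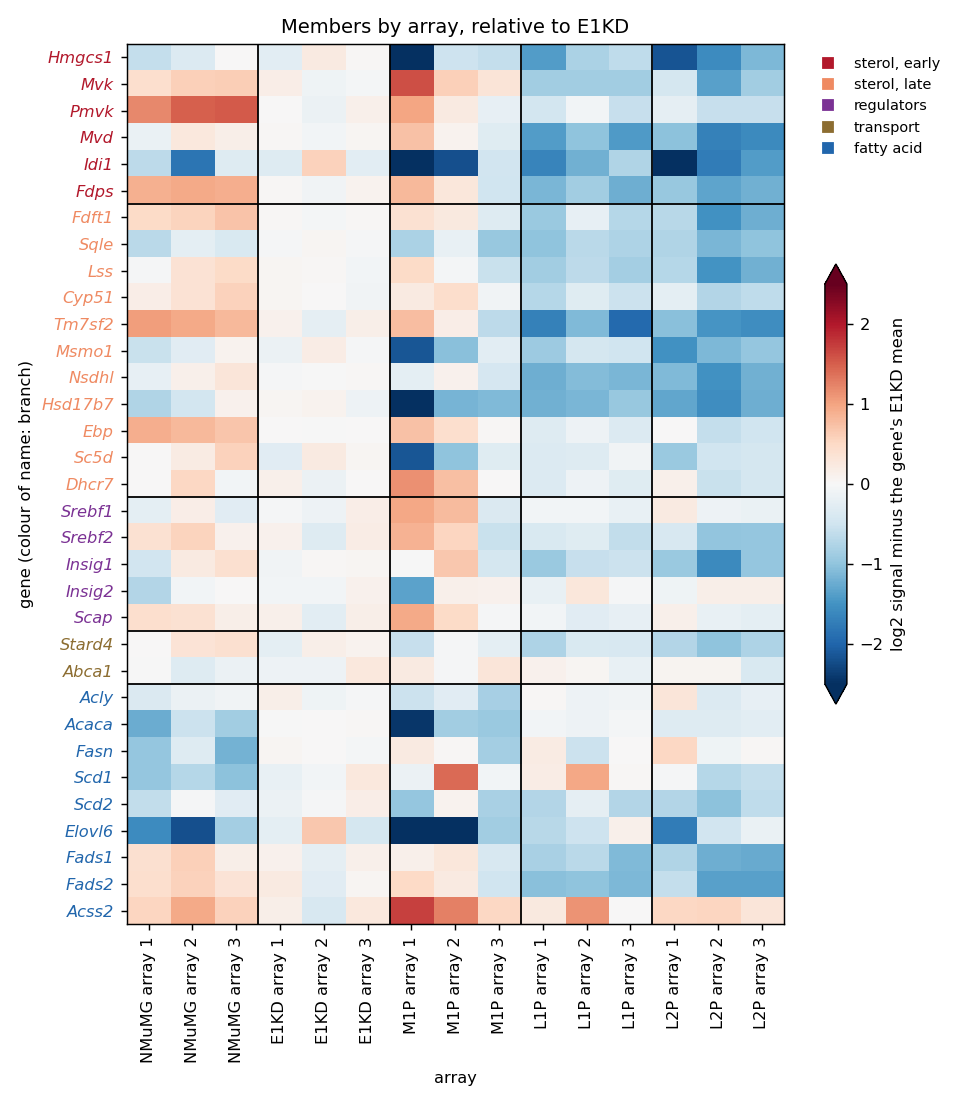
Log2 signal of each measured gene (rows, in pathway order, names coloured by branch) on each of the 15 arrays (columns), minus that gene's mean over the 3 E1KD arrays; blue is lower and red higher, and the colour scale ends at 2.5 in either direction. The sterol rows are blue in the 6 columns of L1P and L2P, apart from Ebp and Dhcr7 on L2P array 1, while the M1P columns differ from each other.

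The comparison of the lung lines with E1KD addresses recovery from lung metastases. Of the 17 sterol genes, 5 fell in L1P and 8 in L2P, and of the 9 fatty acid genes 2 fell in each line, Fads1 and Fads2. The difference between the branches was not tested. In L1P 7 of the 33 genes fell and none rose, against 2.48% of all genes passing in either direction, 1.29% falling and 1.19% rising. In L2P 12 fell and none rose, against 3.78% passing, 1.64% falling and 2.14% rising. Both comparisons use the same 3 E1KD arrays. All 17 sterol genes had a lower mean in L1P and in L2P than in E1KD, with median differences of -0.82 and -1.14, while the median of all genes was -0.03 and 0.00. All 3 arrays lay below all 3 E1KD arrays for 14 of the 17 in L1P, against 13.4% of all genes, and for 15 of the 17 in L2P, against 9.59%. The fatty acid branch had medians of -0.11 and -0.45, with 7 of 9 means lower in each line.

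In the early sterol steps, Mvd and Fdps fell in both lung lines. Mvd, which decarboxylates mevalonate diphosphate to isopentenyl diphosphate, had signals of 7.43, 7.33 and 7.44 in E1KD, 6.0, 6.39 and 5.99 in L1P, and 6.38, 5.72 and 5.81 in L2P. The NMuMG arrays of Mvd read 7.24, 7.66 and 7.55. Every lung array lay below every NMuMG and E1KD array, and the lung lines overlapped each other. Mvd was 2.42-fold lower in L1P than in E1KD (log2 difference -1.27, SE 0.24, adjusted p = 0.0106) and 2.69-fold lower in L2P (-1.43, SE 0.24, adjusted p = 0.00353).

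Fdps, which condenses isoprenes into farnesyl diphosphate, read 10.05, 9.94 and 10.11 in E1KD, 8.89, 9.17 and 8.80 in L1P, and 9.08, 8.71 and 8.82 in L2P. All 6 lung arrays lay below the E1KD arrays, and these lay below the NMuMG arrays at 10.91 to 10.98. Fdps fell 2.11-fold in L1P (-1.08, SE 0.24, adjusted p = 0.0341) and 2.23-fold in L2P (-1.16, SE 0.24, adjusted p = 0.0159).

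The other 4 early genes did not pass in either line. Hmgcs1, the synthase that makes HMG-CoA, read 10.78, 11.26 and 11.07 in E1KD, 9.65, 10.25 and 10.4 in L1P, and 8.88, 9.46 and 9.91 in L2P. Its lung arrays were all below its NMuMG and E1KD arrays, but its differences of -0.93 (adjusted p = 0.563) and -1.62 (adjusted p = 0.0848) carried an SE of 0.47. Mevalonate kinase, Mvk, read 6.23, 6.23 and 6.22 in L1P and 6.65, 5.74 and 6.23 in L2P, all below the lowest E1KD value of 6.98, with differences of -0.87 (adjusted p = 0.175) and -0.89 (adjusted p = 0.128). The isomerase gene Idi1 differed by -1.21 and -1.95 with an SE of 0.68. Pmvk, the kinase that follows Mvk, had the smallest differences of the early steps, -0.36 and -0.46.

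In the late sterol steps, Sqle, Tm7sf2 and Nsdhl fell in both lung lines, and Fdft1, Lss and Hsd17b7 fell in L2P. Nsdhl, a dehydrogenase that removes the methyl groups at carbon 4 of the sterol ring, read 8.96, 8.98 and 9.02 in E1KD, 7.77, 7.90 and 7.84 in L1P, and 7.88, 7.48 and 7.79 in L2P. The lung arrays were all below 8, and no array of the other 3 lines was below 8.57. Its fall was 2.22-fold in L1P (-1.15, SE 0.16, adjusted p = 0.00123) and 2.41-fold in L2P (-1.27, SE 0.16, adjusted p = 0.00043).

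Tm7sf2, a reductase of the sterol ring's double bond at carbon 14, read 7.25, 6.91 and 7.28 in E1KD, 5.46, 6.04 and 5.19 in L1P, and 6.10, 5.66 and 5.59 in L2P. Its lung arrays lay below all arrays of the other 3 lines. It fell 2.99-fold in L1P (-1.58, SE 0.30, adjusted p = 0.0116) and 2.57-fold in L2P (-1.36, SE 0.30, adjusted p = 0.0217).

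Hsd17b7, the ketosteroid reductase of the same demethylation, read 8.44, 8.49 and 8.28 in E1KD, 7.20, 7.25 and 7.46 in L1P, and 7.11, 6.84 and 7.17 in L2P. The lung arrays were below all E1KD and NMuMG arrays and, except L1P array 3, within the range of the M1P arrays, 5.89 to 7.30. It fell 2.57-fold in L2P (-1.36, SE 0.31, adjusted p = 0.027), and its difference in L1P was -1.10 (adjusted p = 0.105).

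Sqle, which oxidises squalene, fell by 0.82 in L1P (SE 0.19, adjusted p = 0.0374) and by 0.98 in L2P (adjusted p = 0.00945). Fdft1, the squalene synthase, and Lss, which closes the ring to lanosterol, each fell by 1.14 in L2P (adjusted p = 0.0128 and 0.017), with differences of -0.62 and -0.78 in L1P that did not pass. Cyp51, the lanosterol demethylase, differed by -0.51 and -0.54 (adjusted p = 0.188 and 0.127), although its 6 lung arrays were below all NMuMG and E1KD arrays. Msmo1, the methyl oxidase that acts with Nsdhl and Hsd17b7, differed by -0.61 and -1.20 (adjusted p = 0.672 and 0.0932). Of the last enzymes, Ebp, Sc5d and Dhcr7 had differences of -0.25 to -0.26 in L1P and -0.28 to -0.62 in L2P, and none passed.

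**Figure D2:**
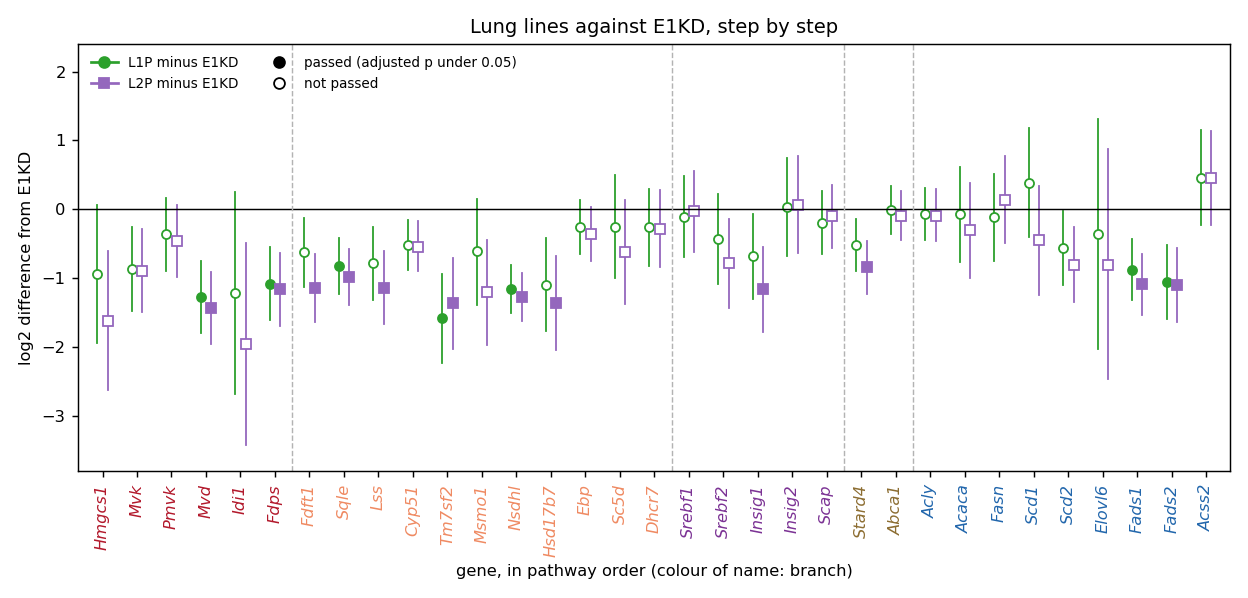
Log2 difference of L1P (green circles) and L2P (purple squares) from E1KD for each gene in pathway order, with 95% confidence intervals from limma; filled symbols passed at an adjusted p under 0.05. All 17 sterol genes lie below 0 in both lines, and in the fatty acid branch only Fads1 and Fads2 are filled.

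Among the regulators, Insig1 fell in L2P, and Srebf1, Srebf2, Insig2 and Scap passed in neither lung line. Insig1, which retains Scap and is itself a sterol-regulated gene, read 8.42, 8.53 and 8.55 in E1KD, 7.57, 7.92 and 7.96 in L1P, and 7.58, 6.90 and 7.54 in L2P. All 6 lung arrays lay below the lowest NMuMG array, 8.03. Insig1 fell 2.24-fold in L2P (-1.16, SE 0.29, adjusted p = 0.0394), and its difference in L1P was -0.68 (adjusted p = 0.398).

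Srebf1 differed from E1KD by -0.11 in L1P (95% interval -0.69 to 0.48) and by -0.03 in L2P (-0.62 to 0.56), and its arrays overlapped. Srebf2 differed by -0.43 in L1P and by -0.78 in L2P (adjusted p = 0.259), with the 3 L2P arrays at 7.84, 7.26 and 7.28 below the E1KD arrays at 7.93 to 8.44. Scap (-0.19 and -0.10) and Insig2 (0.03 and 0.07) were close to E1KD. Stard4, a carrier that moves cholesterol between membranes, read 8.80, 9.19 and 9.12 in E1KD, 8.27, 8.65 and 8.64 in L1P, and 8.31, 8.03 and 8.26 in L2P. Every lung array of Stard4 was below every E1KD array, and the fall passed in L2P (-0.84, SE 0.18, adjusted p = 0.015) and not in L1P (-0.52, adjusted p = 0.206).

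In the fatty acid branch the genes that fell were the desaturases of polyunsaturated fatty acids. Fads2, the delta-6 desaturase, read 9.44, 8.94 and 9.27 in E1KD, 8.18, 8.22 and 8.09 in L1P, and 8.63, 7.87 and 7.86 in L2P. Fads1, the delta-5 desaturase, read 9.32, 8.98 and 9.34 in E1KD, 8.39, 8.53 and 8.10 in L1P, and 8.45, 7.99 and 7.95 in L2P. For both genes all 6 lung arrays were below all arrays of the other 3 lines. Fads2 fell 2.08-fold in L1P (-1.05, SE 0.25, adjusted p = 0.0415) and 2.14-fold in L2P (-1.10, adjusted p = 0.0247). Fads1 fell 1.83-fold in L1P (-0.88, SE 0.21, adjusted p = 0.0407) and 2.12-fold in L2P (-1.08, adjusted p = 0.00834). Fads1, Fads2, Scd1, Scd2 and the sterol gene Tm7sf2 all lie on chromosome 19 of the RefSeq mouse assembly GRCm38.p6. Of these, Scd1 and Scd2 passed in neither lung line on the probe sets used. For Scd2 the one used differed by -0.56 in L1P and -0.80 in L2P, and an unused one by -1.49 and -3.31. The part of this location in the differences was not tested.

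The enzymes that make palmitate differed little. Fasn, the fatty acid synthase, read 10.48, 10.45 and 10.4 in E1KD, 10.64, 9.90 and 10.44 in L1P, and 10.95, 10.33 and 10.47 in L2P, and these ranges overlapped. Its differences were -0.11 in L1P (95% interval -0.75 to 0.52) and 0.14 in L2P (-0.49 to 0.77). Acly, which makes cytosolic acetyl-CoA from citrate, differed by -0.07 (-0.44 to 0.31) and -0.09 (-0.46 to 0.29), and Acaca, which makes malonyl-CoA, by -0.07 (-0.76 to 0.61) and -0.30 (-0.99 to 0.38). The intervals of Acly and Fasn exclude falls as large as those measured for Mvd, Nsdhl and Tm7sf2 in the same lines. Those sterol genes were picked after their values were seen, and their own intervals are not counted here. No difference between genes was tested. Acss2, which makes acetyl-CoA from acetate, was higher by 0.46 and 0.45 without passing. The elongase Elovl6 and the stearoyl desaturases Scd1 and Scd2 did not pass in either line, at differences of -0.80 to 0.39.

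**Figure D3:**
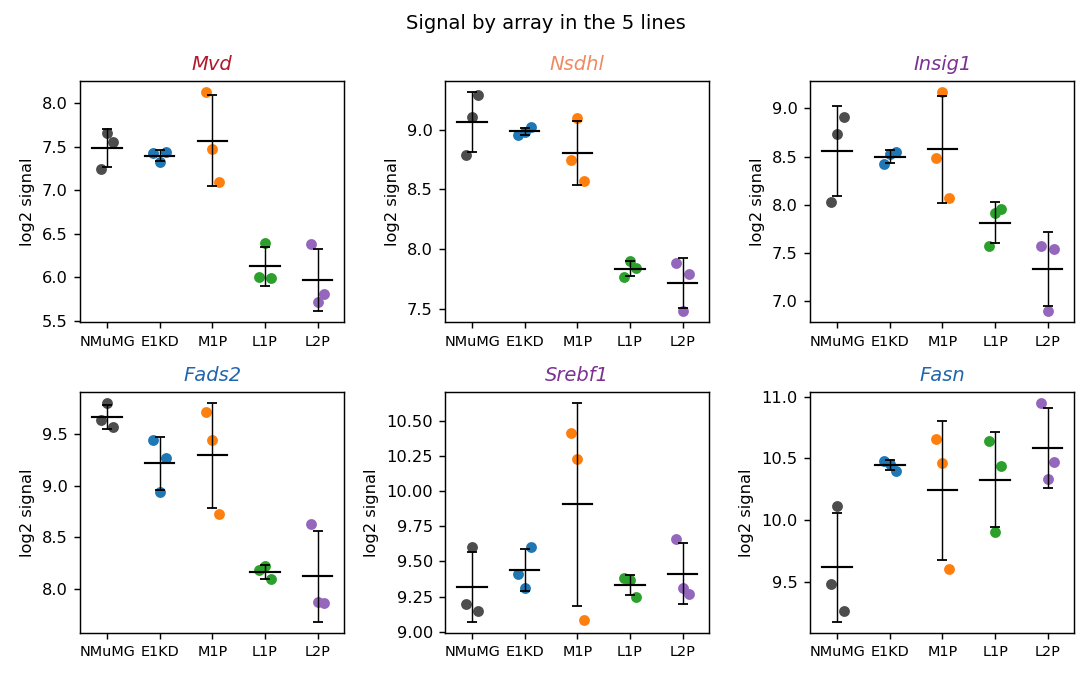
Log2 signal of each array (points), with the mean and SD of the 3 arrays of each line (bars), for 6 genes chosen after their values were seen: Mvd, Nsdhl, Insig1 and Fads2, which fell in L2P, and Srebf1 and Fasn, which did not pass. For Mvd, Nsdhl, Insig1 and Fads2 all 6 lung arrays lie below the arrays of the other lines, while for Srebf1 and Fasn they overlap the E1KD arrays.

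A count chosen after the values were seen set the 6 lung arrays against the 6 arrays of NMuMG and E1KD together. In 14 of the 33 genes every lung array was lower than every one of these, against 3.52% of all genes, and in none was every lung array higher, against 3.48%. The 14 were 10 of the 17 sterol genes (Hmgcs1, Mvk, Mvd, Fdps, Fdft1, Lss, Cyp51, Tm7sf2, Nsdhl and Hsd17b7), with Insig1, Stard4, Fads1 and Fads2. On single arrays the median sterol gene differed from its E1KD mean by -0.92, -0.68 and -0.75 in L1P arrays 1, 2 and 3, and by -0.92, -1.35 and -1.12 in L2P. No proliferation marker of the 6 measured passed in either lung line. The summed signal of 8 macrophage and leukocyte markers was 820 to 1285 in L1P and 915 to 1513 in L2P, against 1110 to 1488 in E1KD. Most of it was Cd14, and Ptprc, which marks all leukocytes, stayed at 2.24 to 2.72 on every array. None of these 8 markers passed, and their means went both ways, with 4 lower in L1P and 5 lower in L2P than in E1KD. Cd14 went from 10.22 in E1KD to 9.74 in L1P and 9.84 in L2P, and Csf1r from 5.04 to 4.78 and 4.83. Cd68 and Lyz2, both lysosomal markers of macrophages, were higher on every lung array than on every E1KD array, a count not set against all genes. Cd68 read 4.89 to 5.12 in E1KD, 5.49 to 5.90 in L1P and 6.02 to 6.5 in L2P (0.64, adjusted p = 0.599, and 1.18, adjusted p = 0.0806). Lyz2 read 4.14 to 4.24 in E1KD, 4.84 to 5.23 in L1P and 4.70 to 5.54 in L2P (0.84, adjusted p = 0.322, and 1.02, adjusted p = 0.141). Of 5 milk protein genes only Csn3 passed, rising by 1.66 in L1P and 2.07 in L2P, and 2 of the 5 had a lower mean in each line. The median of the 5 was 0.02 in L1P and 0.05 in L2P. The part of all these markers in the results was not tested. In RNA from whole cultures, fewer cells of a type and less RNA per cell cannot be told apart.

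Most single calls moved when 1 array was left out. In L1P the count of 7 dropped to 1 when L1P array 1 or 3 was left out, to 2 for E1KD array 1 or 3, to 3 for E1KD array 2, L1P array 2 or L2P array 3, and to 4 for any single NMuMG array. In L2P the count of 12 dropped to 3 when L2P array 2 was left out, to 4 for E1KD array 3, to 5 for L2P array 3 and to 6 for E1KD array 1. Nsdhl passed in both lines, and Mvd and Fads1 in L2P, under all 23 alternatives tried. The model's spread is shared with the scattered M1P line: without M1P, an alternative added after seeing the data, 10 genes fell in L1P and 18 in L2P, including Hmgcs1 (adjusted p = 0.00225), Idi1 (0.013), Msmo1 (0.00189) and Srebf2 (0.0238) in L2P. Of all 18193 genes, 991 passed in L1P and 1351 in L2P in that model.

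L2P had been passaged 1 time more than L1P. Very few of all genes passed between these lines, so that no member passed does not set the members apart. None of the 33 passed by limma, against 0.143% of all genes (0.0934% higher and 0.0495% lower). At an unadjusted p under 0.05 by limma there were 2 (Fdft1, -0.52, and Scd1, -0.84), a count not set against all genes. The mean was lower in L2P for 28 of 33 genes, also a count not set against all genes. The median difference was -0.16 in the sterol branch and -0.21 in the fatty acid branch, against 0.02 for all genes. Fads2 differed by -0.04 (95% interval -0.58 to 0.49), Nsdhl by -0.12 (-0.47 to 0.23) and Hmgcs1 by -0.68 (-1.69 to 0.32). Msmo1 was lower on every L2P array (8.92, 9.30 and 9.47) than on every L1P array (9.53, 9.99 and 9.93), without passing.

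The promoters were searched for short motifs that are textbook binding sequences of factors acting on sterol genes. RefSeq windows of GRCm38.p6, from 250 bases before to 50 after the start, were at hand for 27 of the 34 listed genes, Acat2 among them and Fdps, Fdft1, Sqle, Stard4, Scd1, Scd2 and Fads1 not. The motifs were searched on both strands. The NF-Y box CCAAT was present in 14 of 15 sterol promoters, all but that of Acat2, and in 3 of 6 fatty acid promoters (Acly, Acss2 and Fasn), against 41.1% of all genes with a window. The Sp1 box GGGCGG was present in 14 of 15 sterol and 3 of 6 fatty acid promoters, against 38.2%. The E-box CACGTG was present in 6 of the 27 (Insig1, Scap, Hsd17b7, Sc5d, Dhcr7 and Abca1), against 8.09%. The sterol regulatory element, searched as TCACNCCAC, was present in Hmgcs1 alone, against 1.44% of genes. Only this form was searched, and only within the window, so a missing match does not show that a promoter lacks the element. A match is a description of the letters and does not show binding.

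The 140 bases before the start are shown for Hmgcs1, which holds the sterol element, for Mvd, Tm7sf2, Nsdhl and Hsd17b7, the sterol genes with a window that fell most in L2P, and for Fads2 and Fasn, of which one fell and the other did not pass. This choice was made after the values were seen. Capitals mark the NF-Y box, CCAAT or ATTGG on the other strand, and in Hmgcs1 also the sterol element. Each is written 5' to 3' on the gene's strand: Hmgcs1 at chr13:119690211-119690350 (plus), Mvd at chr8:122443423-122443562 (minus), Tm7sf2 at chr19:6067851-6067990 (minus), Nsdhl at chrX:72918381-72918520 (plus), Hsd17b7 at chr1:169969206-169969345 (minus), Fads2 at chr19:10101504-10101643 (minus) and Fasn at chr11:120824548-120824687 (minus).
Hmgcs1: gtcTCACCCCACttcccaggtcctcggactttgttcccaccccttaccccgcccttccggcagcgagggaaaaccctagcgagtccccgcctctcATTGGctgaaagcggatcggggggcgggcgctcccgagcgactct
Mvd: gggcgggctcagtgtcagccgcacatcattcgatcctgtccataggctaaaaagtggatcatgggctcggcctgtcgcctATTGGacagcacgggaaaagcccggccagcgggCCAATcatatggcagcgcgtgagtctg
Tm7sf2: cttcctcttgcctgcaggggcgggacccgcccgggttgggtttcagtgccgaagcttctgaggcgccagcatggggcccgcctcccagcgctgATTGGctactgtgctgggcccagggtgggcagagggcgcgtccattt
Nsdhl: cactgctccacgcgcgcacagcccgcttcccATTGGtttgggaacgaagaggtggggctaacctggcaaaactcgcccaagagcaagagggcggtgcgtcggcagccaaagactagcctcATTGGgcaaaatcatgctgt
Hsd17b7: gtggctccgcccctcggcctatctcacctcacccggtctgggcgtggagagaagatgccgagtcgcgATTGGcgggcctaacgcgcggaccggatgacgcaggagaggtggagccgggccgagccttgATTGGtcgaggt
Fads2: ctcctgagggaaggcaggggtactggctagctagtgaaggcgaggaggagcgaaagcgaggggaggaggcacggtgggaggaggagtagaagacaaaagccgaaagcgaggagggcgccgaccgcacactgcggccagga
Fasn: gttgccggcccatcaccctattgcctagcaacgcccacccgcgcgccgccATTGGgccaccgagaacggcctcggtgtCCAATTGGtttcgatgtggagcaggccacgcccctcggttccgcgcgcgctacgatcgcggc
Mvd, Nsdhl and Hsd17b7 hold 2 boxes in this stretch, Hmgcs1 and Tm7sf2 1, and Fads2, which fell in both lung lines, none. Fasn, which passed in neither lung line, holds 3, of which a pair overlap as CCAATTGG.

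The comparison of E1KD with NMuMG addresses silencing of hnRNP E1 without passage in mice. A few sterol enzymes were lower in E1KD, and the fatty acid genes went both ways without passing. Of these 9, 4 were higher on every E1KD array, against 13.7% of all genes, and 3 (Fads1, Fads2 and Acss2) were lower on every array, against 22.3%. Of the 33 genes, 3 fell and none rose, against 9.49% of all genes passing (6.49% lower and 3.0% higher), so the share is near that of the genes as a whole. Pmvk, which makes mevalonate diphosphate, read 8.67, 8.97 and 9.0 in NMuMG and 7.48, 7.33 and 7.59 in E1KD. The groups lay apart by more than 1 log2 unit, and the fall was 2.66-fold (-1.41, SE 0.24, adjusted p = 0.00229). Pmvk stayed low in the lines derived from E1KD except M1P array 1, which read 8.45.

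Fdps fell from 10.91, 10.98 and 10.93 to 10.05, 9.94 and 10.11 (-0.91, SE 0.24, adjusted p = 0.0326). Ebp, the sterol isomerase, fell from 11.12, 11.02 and 10.9 to 10.21, 10.20 and 10.21 (-0.80, SE 0.18, adjusted p = 0.0117). In both genes the arrays of the lines did not overlap. Fdps lost its call when any 1 array of NMuMG or E1KD was left out, with adjusted p from 0.075 to 0.12, and Ebp without NMuMG array 1 (0.0544). Tm7sf2 differed by -0.93 (adjusted p = 0.0763), and Sqle and Idi1 were higher by 0.44 and 0.94 without passing.

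Acaca read 7.01, 7.71 and 7.38 in NMuMG and 8.24, 8.25 and 8.27 in E1KD, a difference of 0.88 (adjusted p = 0.113). Fasn read 9.48, 10.11 and 9.26 and then 10.48, 10.45 and 10.4, a difference of 0.82 (adjusted p = 0.106). Scd1 and Elovl6 were also higher on all 3 E1KD arrays, by 0.90 (adjusted p = 0.164) and 1.54 (adjusted p = 0.28). The fatty acid median was 0.31 and the sterol median -0.26, against -0.07 for all genes. With the M1P line left out of the model these 4 passed as higher in E1KD (adjusted p = 0.00106, 0.0301, 0.0208 and 0.0283). In that model 8 of the 33 genes passed, beside 3463 of all 18193 genes, so many genes outside the list gained a call as well. The count was 11 when the model held these 2 lines alone, where 3439 of all genes passed. It was 5 when M1P array 1 or 3 was left out and 1 when NMuMG array 1 was.

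The comparison of M1P with E1KD addresses growth as a mammary tumour. Its arrays disagreed with each other, so its values are given array by array. In the model over all arrays 2 of 33 genes rose and 8 fell, against 27.6% of all genes passing (17.7% higher and 9.86% lower). Elovl6, which elongates palmitate, read 8.45, 9.38 and 8.27 in E1KD and 3.83, 6.10 and 7.84 in M1P. Idi1 read 9.79, 10.69 and 9.85 in E1KD and 6.24, 7.91 and 9.63 in M1P. In both genes M1P array 1 was far the lowest and array 3 was close to E1KD. Elovl6 fell by 2.78 (SE 0.77, adjusted p = 0.0234) and Idi1 by 2.19 (SE 0.68, adjusted p = 0.034).

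Hsd17b7 and Acaca were low on all 3 M1P arrays. Hsd17b7 read 5.89, 7.24 and 7.30 against 8.28 to 8.49 in E1KD and fell by 1.59 (SE 0.31, adjusted p = 0.00622). Acaca read 5.81, 7.38 and 7.33 against 8.24 to 8.27 and fell by 1.41 (SE 0.32, adjusted p = 0.0113). Msmo1 read 8.30, 9.38 and 10.16 (-1.16, adjusted p = 0.0324) and Sc5d, the lathosterol desaturase, 6.46, 7.6 and 8.3 (-1.14, adjusted p = 0.0315), again lowest on array 1. Sqle (-0.64) and Acly (-0.56) also fell. The rises were Acss2, at 6.58, 6.14 and 5.39 against 4.47 to 5.14 in E1KD (1.16, adjusted p = 0.0221), and Mvk, at 8.70, 7.69 and 7.42 against 6.98 to 7.26 (0.84, adjusted p = 0.0415).

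**Figure D4:**
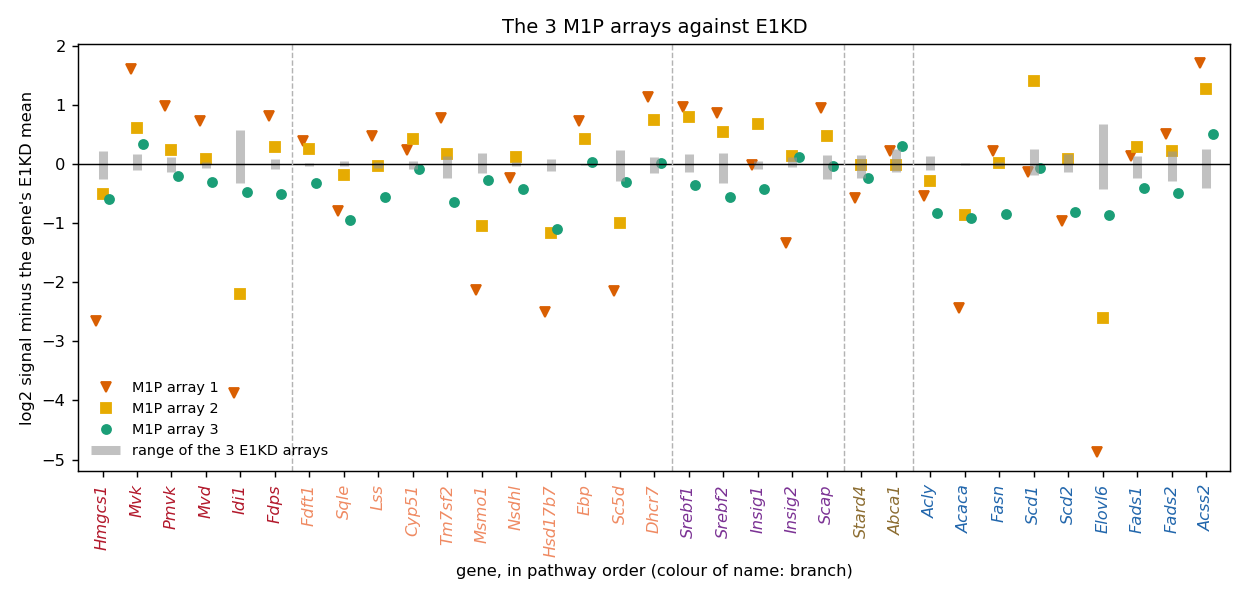
Log2 signal of each M1P array (triangles, squares and circles for arrays 1, 2 and 3) minus the gene's E1KD mean, in pathway order, with the range of the 3 E1KD arrays as a grey bar. For Elovl6 array 1 lies farthest from E1KD, at a signal of 3.83 against an E1KD mean of 8.70, and for Elovl6, Idi1, Msmo1 and Sc5d array 3 is the M1P array closest to E1KD.

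The median sterol gene was 0.38, 0.12 and -0.33 from E1KD on M1P arrays 1, 2 and 3, and the median of all genes was 0.37, 0.16 and 0.07, so the branch median was below 0 on array 3 alone. The fatty acid medians were -0.14, 0.09 and -0.80. With array 3 as the only M1P array, assumed to vary like the other lines, 3 of the 33 genes fell, Hsd17b7, Acaca and Sqle, and none rose. The count of 10 became 2 when M1P array 1 or E1KD array 2 was left out, 4 for E1KD array 3, 5 for E1KD array 1 and 16 for M1P array 3. It was 0 when the model held these 2 lines alone, where 67 of all genes passed. Of 6 proliferation markers, Mki67 and Top2a fell by 3.09 and 2.84 in M1P, Mcm5 rose by 0.59, and the other 3 did not pass. The milk protein gene Csn3 rose by 3.98. The summed signal of 8 fibroblast markers was 100 to 203 in M1P against 86 to 89 in E1KD. The Gapdh difference of 3' and 5' probe sets was 0.25, 0.27 and 0.45 on M1P arrays 1, 2 and 3, and that of Actb 0.64, 0.68 and 0.77. The part of these in the M1P values was not tested.

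L1P and M1P were taken after 1 passage at different sites. Of the 17 sterol genes 11 were lower in L1P, and the fatty acid genes that passed went both ways. In L1P 14 of 33 genes were lower and 3 higher than in M1P, against 39.5% of all genes passing (25.9% lower and 13.6% higher). The lower ones were 11 of 17 sterol genes with Scap, Fads1 and Fads2, and the higher ones were Elovl6, Acaca and Acly. Among the sterol genes that did not pass, Idi1 (0.98), Sc5d (0.89), Msmo1 (0.54), Hsd17b7 (0.50) and Hmgcs1 (0.32) had a higher mean in L1P. Mvk was at 6.23, 6.23 and 6.22 in L1P, below the M1P arrays at 7.42 to 8.70 (-1.71, SE 0.28, adjusted p = 0.00168). Tm7sf2 differed by -1.67 (adjusted p = 0.00297), Mvd by -1.45 (adjusted p = 0.00187) and Fdps by -1.27 (adjusted p = 0.00397), and for all of these the arrays did not overlap. Elovl6 was higher in L1P by 2.42 (adjusted p = 0.029) and Acaca by 1.33 (adjusted p = 0.0102), with L1P Acaca at 8.19, 8.13 and 8.20. With M1P array 3 alone 4 of these 17 passed: Mvk, Mvd and Nsdhl lower and Acaca higher. The count was 9 when M1P array 1 or L1P array 3 was left out, 11 for L1P array 1, and 0 when the model held these 2 lines alone.

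Several genes had more than 1 probe set, and some of these disagreed. The levels of different probe sets are not comparable, so only differences are set side by side. For Cyp51 the probe set used differed between M1P and E1KD by 0.20, and the second brightest by -1.45. For Lss the same values were -0.04 and -1.39, and for Stard4 -0.28 on the one used against -2.01 and -1.63 on the others. In the lung lines the 3 Stard4 probe sets differed from E1KD by -0.52 to -0.78 in L1P and by -0.84 to -1.12 in L2P. For Fdft1, 1 unused probe set differed by 0.23 in L1P and 0.24 in L2P, against -0.62 and -1.14 on the one used, and for Elovl6 1 differed by 0.36 and 0.09, against -0.36 and -0.80. Scd2, a desaturase that makes monounsaturated fatty acids, differed by -0.56 and -0.80 on the probe set used and by -0.65 and -0.91 on another. The third Scd2 probe set differed by -1.49 in L1P (adjusted p = 0.0429) and by -3.31 in L2P (adjusted p = 0.00011) when it represented the gene. Probe sets marked _x_at or _s_at, such as those used for Hmgcs1, Fdft1, Hsd17b7, Mvd and Lss, may also bind related transcripts.

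**Figure D5:**
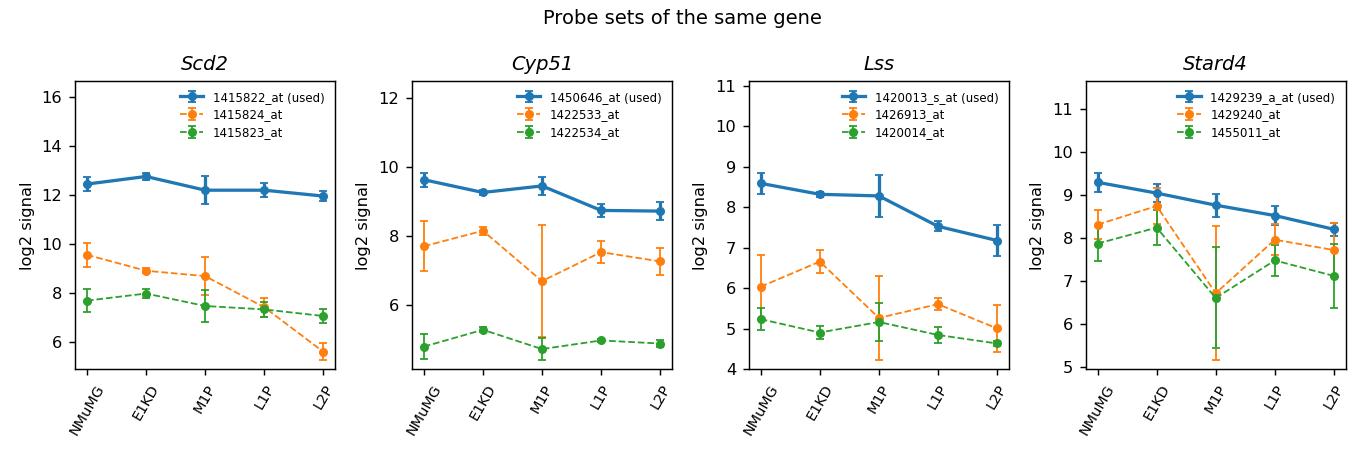
Mean log2 signal with SD (n = 3 arrays) in each line for the probe sets of 4 genes chosen after their values were seen; the solid line is the probe set used. For Cyp51, Lss and Stard4 at least 1 unused probe set has a lower mean in M1P than in E1KD by more than 1 log2 unit while the used one does not, and the mean of 1 unused Scd2 probe set goes from 8.90 in E1KD to 5.59 in L2P.

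No gene of the lists around the pathway passed in the lung lines, where 2.48% of all genes passed in L1P and 3.78% in L2P. At such shares few or none would pass in lists this short, so the absence does not set them apart. Of 10 genes of uptake, efflux and storage, 5 of SREBP processing, 6 of isoprenoid side branches and 17 of fatty acid activation, elongation and glycerolipid synthesis, none passed in L1P or L2P against E1KD by limma. At an unadjusted p under 0.05 by limma there were 2, 1, 0 and 2 in L1P and 3, 1, 0 and 2 in L2P. These counts were not set against all genes, so they cannot be read as many or few. The medians of these lists were -0.16, 0.10, 0.08 and -0.13 in L1P and -0.09, 0.13, 0.01 and -0.16 in L2P. The largest differences of the uptake list were those of Lrp1, a lipoprotein receptor, at -1.35 in L1P (adjusted p = 0.331) and -1.11 in L2P (adjusted p = 0.462). Its 6 lung arrays, at 4.49 to 4.97, lay below its E1KD arrays, at 5.24 to 6.65. The oxysterol-binding protein gene Osbp differed by -0.54 and -0.58. Npc1, which exports cholesterol from lysosomes, differed from E1KD by 0.40 and 0.57, and Lipa, the lysosomal lipase that frees it, by -0.43 and -0.62.

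In E1KD against NMuMG 5 of these genes passed, 2 higher and 3 lower, a share close to the 9.49% of all genes (3.0% higher and 6.49% lower). Vldlr, a lipoprotein receptor, read 6.87, 7.68 and 7.10 in NMuMG and 8.94, 8.91 and 9.11 in E1KD, with no overlap, and rose 3.41-fold (1.77, SE 0.36, adjusted p = 0.00666). In the lines derived from E1KD it lay at 7.49 to 9.37, lowest on M1P array 1. Nr1h3, the sterol-sensing receptor LXR alpha, fell from 6.51, 6.22 and 6.42 to 5.01, 4.76 and 5.08 (-1.43, SE 0.22, adjusted p = 0.00096). Mbtps1, the first protease that cleaves the SREBP precursors, rose by 0.47, and Lipa and Dgat1, the last enzyme of triglyceride synthesis, fell by 1.03 and 1.11. In M1P against E1KD 5 genes rose, namely Scarb1, Dhdds, Cyb5r3, Mcat and Slc25a1, and 3 fell, a share below the 27.6% of all genes (17.7% higher and 9.86% lower). The falls were Mbtps2, the second such protease, by 3.19 (adjusted p = 0.00418), and the acyl-CoA synthetases Acsl4 and Acsl3 by 2.08 and 1.77. Mbtps2 read 4.13, 5.80 and 6.83 on M1P arrays 1, 2 and 3, all below the E1KD arrays at 8.47 to 9.04, and again lowest on array 1.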

How the data were processed

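RNA of 5 mouse cell lines, with 3 arrays each, was hybridised to Affymetrix 3' arrays. The authors deposited log2 signals for 45101 probe sets, and RMA, MAS5 and Affymetrix Expression Console are named per the submitters' processing notes, with their versions not given in the sources used here. Array medians were 4.17 to 4.26 and no further normalization was applied; the number of arrays limits the precision. Of the probe sets, 34945 carried 1 gene symbol, 932 several, 9160 none and 64 were controls; symbols were updated through gene IDs for 34741. Per gene the probe set with the highest mean was kept, which gave 18193 genes. Limma 3.58.1 in R 4.3.3 was fitted with 1 coefficient per line over all 15 arrays (10 residual and 2.98 prior degrees of freedom), 6 pairs of lines and an F test were taken from it, with Benjamini-Hochberg adjustment over all genes and a threshold of 0.05. The fit was tested on simulated data. M1P, L1P and L2P were each compared with the same E1KD arrays. Up to 6 passing genes with the largest difference per comparison are given array by array. The members, lists, motifs and tests were chosen with earlier results of these data known. In 23 alternatives the probe set, a signal minimum of 5, the arrays used, array weights and a replicate block were varied, and each of the 15 arrays was left out in turn.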

Additional observations from a re-analysis of the deposited data

How the results depend on the processing

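Counts of passing genes depended on which arrays set the spread. The direction of the sterol branch in the lung lines was the same in all 23 alternatives, but many of these could not change it. Leaving out arrays of other lines, fitting the 2 lines alone, the replicate block and the signal minimum left its differences from E1KD as they were. Those that could change it were quantile normalization, the probe set of largest variance, array weights and leaving out an array of the lines compared. With the 2 lines compared alone in the model, E1KD against NMuMG gave 3439 genes and 11 of the 33 (1727 and 3 as reported), M1P against E1KD 67 and 0, L1P against E1KD 1195 and 14, and L1P against M1P 288 and 0. With array weights, whose gene-by-gene method was chosen after the default had not converged, these were 4113 and 11 for E1KD against NMuMG, 1591 and 15 for L1P against E1KD, 2545 and 21 for L2P against E1KD, 138 genes for L2P against L1P, and 10001 genes in the F test. With M1P array 3 as the only M1P array, or without the M1P line (added after seeing the data), there were 3463 and 8 for E1KD against NMuMG, 991 genes for L1P against E1KD, 1351 for L2P against E1KD and 69 for L2P against L1P. Array 3 alone gave 809 and 3 for M1P against E1KD and 1327 and 4 for L1P against M1P. A mean signal of at least 5 left 6 genes for L2P against L1P.

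Medians moved as follows. The sterol median was -0.08 in E1KD against NMuMG and -0.18 in M1P against E1KD on the probe set of largest variance, -0.33 in M1P against E1KD and -0.33 in L1P against M1P with M1P array 3 alone, and -1.27 in L2P against E1KD with weights. The fatty acid median was -0.80 in M1P against E1KD and 0.46 in L1P against M1P with array 3 alone, -0.24 in L1P against E1KD and -0.12 in L2P against L1P at a signal of at least 5, and -0.31 in L2P against E1KD and -0.50 in L1P against M1P with weights. On the probe set of largest variance Sc5d was 1.47 in E1KD against NMuMG, and L1P against M1P gave 0.34 for Lss, 0.83 for Cyp51 and -1.27 for Scd2. The cause was not tested.

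When 1 array was left out, genes and members ranged from 999 to 3083 and 1 to 5 in E1KD against NMuMG, 1106 to 8510 and 2 to 16 in M1P against E1KD, 272 to 836 and 1 to 10 in L1P against E1KD, 424 to 1164 and 3 to 16 in L2P against E1KD, and 2489 to 9863 and 9 to 23 in L1P against M1P. L2P against L1P gave 18 to 53 genes and no member, and the F test 4259 to 8910 genes. The fatty acid median ranged from 0.16 to 0.44 in E1KD against NMuMG, from -0.36 to 0.11 in M1P against E1KD, from -0.54 to -0.31 in L2P against E1KD, from -0.22 to -0.08 in L2P against L1P and from -0.23 to 0.32 in L1P against M1P. The sterol median ranged from -0.15 to 0.32 in M1P against E1KD and from -1.26 to -0.96 in L2P against E1KD.

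With the replicate number as a block, 4, 11, 7, 14, 0 and 19 of the 33 genes passed in E1KD against NMuMG, M1P, L1P and L2P against E1KD, L2P against L1P and L1P against M1P. The labels give the numbers no shared origin, so the main model assumed no pairing. Deviations of same-numbered arrays correlated at -0.50 to 0.75 (median 0.115, 30 pairs), and those of unlike-numbered arrays at -0.77 to 0.66 (median -0.08, 60 pairs). Array 1 of E1KD, M1P, L1P and L2P correlated at 0.37 to 0.75 with each other, and array 3 of M1P, L1P and L2P at 0.59 to 0.69. Whether same-numbered arrays shared a handling step was not tested. Over all alternatives, 221 results of single members lost a call, 137 gained one, 4 reversed and 4114 did neither. Low signals, such as those of Abca1, Scd1 and Acss2, limit what can be seen of those genes.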
